A study of Ginkgo biloba with 2 samples.

Results

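Laccases and class III peroxidases are the oxidative enzymes of the plant cell wall, and 29 of the 64515 reference sequences listed for ginkgo (*Ginkgo biloba*) ovules and leaves belonged to them. They were chosen by the name of their best match in the nr protein database (BLAST). A sequence was a member when that description held the word laccase, multicopper oxidase or peroxidase and did not name ascorbate, glutathione or thioredoxin, which mark other peroxidase families. No measured level entered this choice. It found 1 laccase, 28 peroxidases and no sequence described as another multicopper oxidase. Few descriptions state a class, and a peroxidase was taken as class III when nothing in its description named another family.

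Both tissues, ovules at maturity and leaves at full expansion, came from female trees and were harvested in April. Each tissue had 1 RNA library, so every difference below compares a pair of libraries, with no replicate, no test and no p-value. The labels name no cultivar, no tree and no number of trees behind a library. In bulk tissue, fewer cells of a type and less RNA per cell cannot be told apart.

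Laccases are copper enzymes that use oxygen to turn lignin monomers into radicals. Class III peroxidases are secreted haem enzymes of plants that do the same with hydrogen peroxide, and that can also stiffen walls by linking wall proteins and phenolics or loosen them through reactive oxygen. The radicals couple into lignin in xylem, fibres and other hardened tissue. Class III peroxidases form large families in land plants, and the substrate of a given member can rarely be read from its sequence.

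The ovule library held 4581771 uniquely mapped reads and the leaf library 4245222. The authors' RPKM, which is reads per 1000 bases of sequence per 1000000 uniquely mapped reads, gives the level of a sequence. A fold is the ratio of reads per 1000000 between the libraries, with an exact Clopper-Pearson 95% interval on its read counts. Such intervals cover counting error alone. A sequence was called higher in a library at a log2 ratio of at least 1, taken on RPKM + 0.5, provided its RPKM reached 1 in 1 or both libraries. Tissue markers followed the labels: of 29 histone and proliferating cell nuclear antigen sequences past that filter, ovule was higher for 20 and leaf for 1, while of 31 light-harvesting, photosystem I and Rubisco activase sequences, leaf was higher for 19 and ovule for 1. Of 6 GbMADS8, GbMADS10 and AINTEGUMENTA sequences past the filter, regulators of reproductive organs, ovule was higher for 5 and leaf for 1. The sequences of these names held 1493 ovule reads and 11 leaf reads in all, or 481 and 10 without the most-read one. No sequence matched the names used for xylem cysteine proteases, so xylem content had no marker of that kind. The other names set for xylem, cellulose synthase and fasciclin-like, had 26 sequences past the filter, 22 higher in ovule and 2 in leaf. Whether these sequences reflect xylem was not tested.

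The members divided evenly between the tissues, with large ratios in both directions. Of the 29, 21 passed the filter on low values and 8 did not. Past the filter, 9 were higher in ovule, another 9 in leaf, and 3 differed by less than 2-fold. The same calls were made toward ovule for 27.3%, and toward leaf for 35.1%, of all 56768 sequences past the filter. When the counting interval also had to exclude 1, 8 members were higher in ovule and 7 in leaf, against 17.3% and 13.6% of all sequences. Members had more reads than most sequences. Their median in the better-covered library was 21 over all 29, those under the filter included, against 10 over all sequences past the filter. The part of read depth in these shares was not tested. Of 23 members with a BLAST E value of at most 1e-20, a limit chosen after seeing the data, 16 passed the filter. Ovule was higher for 5 of them and leaf for 9, or for 5 and 7 when the counting interval also had to exclude 1. The summed reads of the 23 went the other way, 1.29-fold higher in ovule (1.21 to 1.37). That direction rests on the most-read sequence, Unigene11250, without which the sum was 1.82-fold higher in leaf (1.68 to 1.98). No share over all sequences was taken at that limit. With RPKM summed over sequences of the same description, the calls were 5 toward ovule and 6 toward leaf among 13. The median log2 ratio of ovule over leaf was -0.72 (order-statistic 95% interval, -2.79 to 2.23), against -0.10 over all sequences. With empty libraries set at 3 reads, the upper limit behind a count of 0, the median of the members was -0.46. It turned to 0.46 with a filter of at least 5 RPKM and to 1.65 among members with at least 20 reads, so the median gives no direction for the members.

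**Figure D1:**
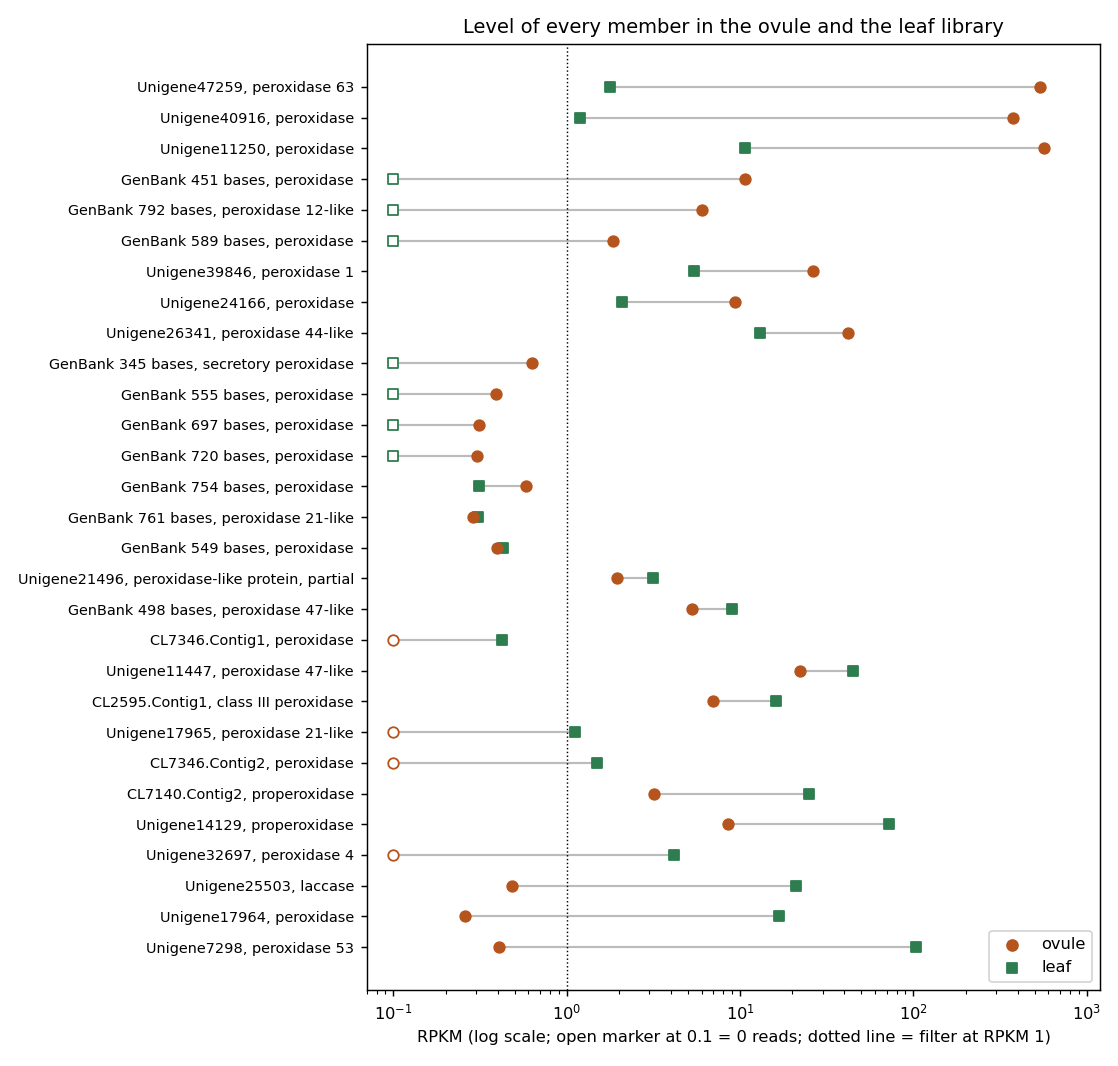
Level of each of the 29 members as RPKM on a log axis, with a circle for the ovule library and a square for the leaf library, ordered by the log2 ratio. An open marker at the left edge stands for 0 reads, and the dotted line marks the filter at an RPKM of 1; the 9 members called higher in ovule are the uppermost and reach 570 RPKM, while those called higher in leaf reach 104.

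The single laccase was higher in leaf. Unigene25503, a sequence of 907 bases whose best hit was a laccase of loblolly pine (*Pinus taeda*), had 2 ovule reads and 81 leaf reads. Its level was 0.481 RPKM in ovule against 21.0 in leaf, a 43.7-fold leaf excess (11.7 to 367). The leaf reads covered 80.6% of the sequence and the ovule reads 6.95%. In pine, laccases are known from xylem that is forming lignin. The authors' gene ontology terms for the ginkgo sequence were extracellular region, secondary cell wall biogenesis, xylan biosynthesis, glucuronoxylan metabolism and lignin biosynthesis, and it was the 1 member that carried the lignin term. Other laccase genes of ginkgo may be listed under a description that names no function, and no gene ontology term for laccase activity appeared in the tables with which to find them.

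Among the peroxidases, 3 short sequences had by far the highest levels, and all 3 were ovule sequences. Unigene11250 (510 bases), whose best hit was a cotton peroxidase, had 1333 ovule reads and 23 leaf reads. It stood at 570 RPKM in ovule against 10.6 in leaf, an ovule excess of 53.7-fold (35.6 to 85.0), and was the 90th sequence of the whole ovule library by RPKM. Its reads lay on a small part of the sequence, 158 bases in ovule and 145 in leaf. Because the tables count uniquely mapped reads, bases shared with another reference sequence would collect none, and whether this set the covered part was not tested.

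Unigene40916 (198 bases), with a Norway spruce peroxidase as best hit, had 342 ovule reads and 1 leaf read. Its level was 377 RPKM in ovule and 1.19 in leaf, a 317-fold difference whose interval was wide (56.5 to 12552) because it rests on a single leaf read. The ovule reads covered 98.0% of its bases.

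Unigene47259 (397 bases) had 977 ovule reads and 3 leaf reads, which is 537 RPKM in ovule against 1.78 in leaf, an ovule excess of 302-fold (103 to 1466). Its name is weakly founded. The hit to castor bean peroxidase 63 had an E value of 2.16e-08, where that of Unigene11250 was 4.39e-66, and the authors' terms for it were sulfur compound biosynthesis and response to stress, with no term for peroxidase activity or haem binding. Its values therefore belong to a sequence that may not be a peroxidase.

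These 3 sequences carried most of the ovule reads. They took 2652 of the 3329 ovule reads on members, or 79.7% (exact 95% interval, 78.3 to 81.0), and 27 of the 1668 leaf reads, or 1.62% (1.07 to 2.35). Over the 28 peroxidases, reads per 1000000 were 726 in ovule and 374 in leaf, a 1.94-fold excess in ovule (1.83 to 2.06). Without Unigene11250 the excess was 1.18-fold (1.11 to 1.26), and among peroxidases with an E value of at most 1e-20, which leaves out Unigene47259, it was 1.35-fold (1.27 to 1.44). The sum at that limit still held Unigene11250. Without it, the members at that limit, the laccase among them, were 1.82-fold higher in leaf (1.68 to 1.98). Leaving out Unigene11250, Unigene47259 and Unigene40916, chosen after their values were seen, could only move the sum toward leaf. The other 26 members, the laccase among them, were 2.62-fold higher in leaf (2.39 to 2.87). Without Unigene7298 as well, the leaf excess was 1.87-fold (1.70 to 2.06).

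**Figure D2:**
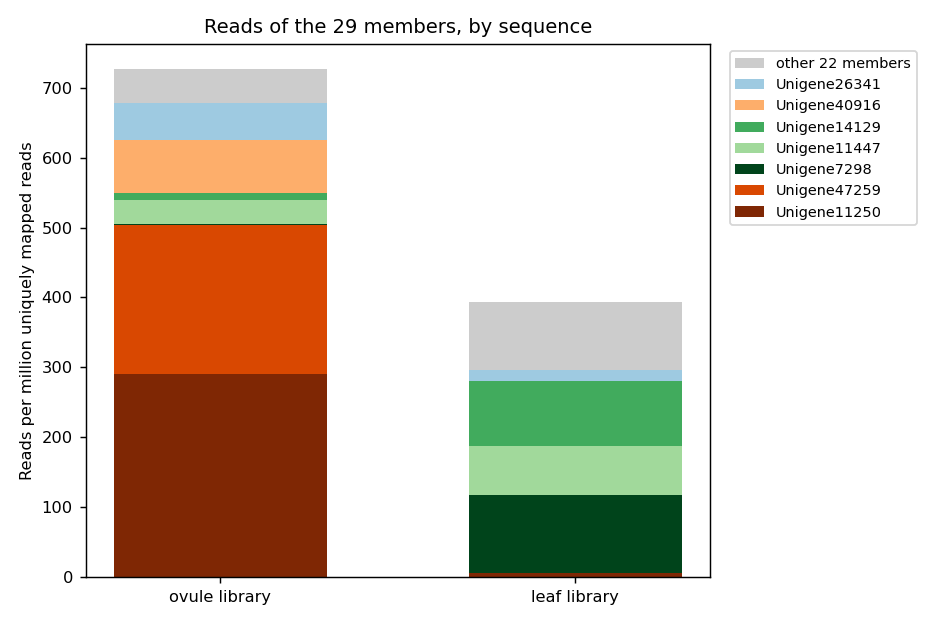
Reads per 1000000 uniquely mapped reads on the 29 members in each library, stacked by sequence for the 7 most-read members, with the other 22 together in grey. The ovule bar of 727 is mostly Unigene11250, Unigene47259 and Unigene40916, and the leaf bar of 393 is mostly Unigene7298, Unigene14129 and Unigene11447.

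The peroxidases with the most leaf reads were longer than Unigene11250, Unigene47259 and Unigene40916, and stood at moderate levels. Unigene7298 (1067 bases), with castor bean peroxidase 53 as best hit, had 2 ovule reads and 471 leaf reads, the most of any member in leaf. Its level was 0.409 RPKM in ovule against 104 in leaf, a 254-fold leaf excess (70.0 to 2105), and leaf reads covered 99.4% of it. The Arabidopsis enzyme of this number is a secreted peroxidase studied for its part in lignin formation. The authors' terms for Unigene7298 were extracellular region, Golgi apparatus, defence response to nematode and flower development.

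A spruce properoxidase, the precursor of a secreted peroxidase, was the best hit of both Unigene14129 and CL7140.Contig2. Unigene14129 had 50 ovule and 396 leaf reads, at 8.48 and 72.5 RPKM, 8.55-fold higher in leaf (6.36 to 11.7). CL7140.Contig2 had 15 and 109 reads, at 3.20 and 25.1 RPKM, 7.84-fold higher in leaf (4.55 to 14.5). The intervals of both overlapped, and with a shared hit they may be copies of related genes or pieces of 1 gene.

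Unigene17964 (840 bases), with a poplar peroxidase as best hit, had 1 ovule read and 60 leaf reads. It stood at 0.260 RPKM in ovule against 16.8 in leaf, 64.8 times as high in leaf (11.2 to 2600). Defence response to fungus was among its terms, which it shared with both peroxidase 21-like members. CL2595.Contig1, described as a cotton class III peroxidase, had 45 and 96 reads, at 7.01 and 16.1 RPKM, a smaller leaf excess of 2.30-fold (1.60 to 3.36). Together Unigene7298, Unigene14129, Unigene11447 and CL7140.Contig2 took 76.3% of the leaf reads on members (74.1 to 78.3) and 6.79% of the ovule reads (5.96 to 7.70).

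Some members were well expressed in both tissues. Unigene11447, a peroxidase 47-like sequence of 1555 bases, had 159 ovule and 296 leaf reads, at 22.3 and 44.8 RPKM. The leaf excess of 2.01-fold (1.65 to 2.45) lay at the edge of the call: its log2 ratio with the pseudocount was -0.99, and it was counted as under 2-fold. In Arabidopsis, the peroxidase of this number takes part in the lignification of vessels. A GenBank tag of 498 bases had the same tomato protein as best hit, with 12 ovule and 19 leaf reads, 1.71-fold higher in leaf with an interval that included 1 (0.788 to 3.86). Unigene26341, a peroxidase 44-like sequence, went toward ovule, with 243 ovule and 70 leaf reads. It stood at 41.9 and 13.0 RPKM, 3.22-fold higher in ovule (2.46 to 4.26). The Arabidopsis peroxidase of this number acts in root hair growth, and root hair elongation, nitrate response and iron transport were among the authors' terms for the ginkgo sequence.

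**Figure D3:**
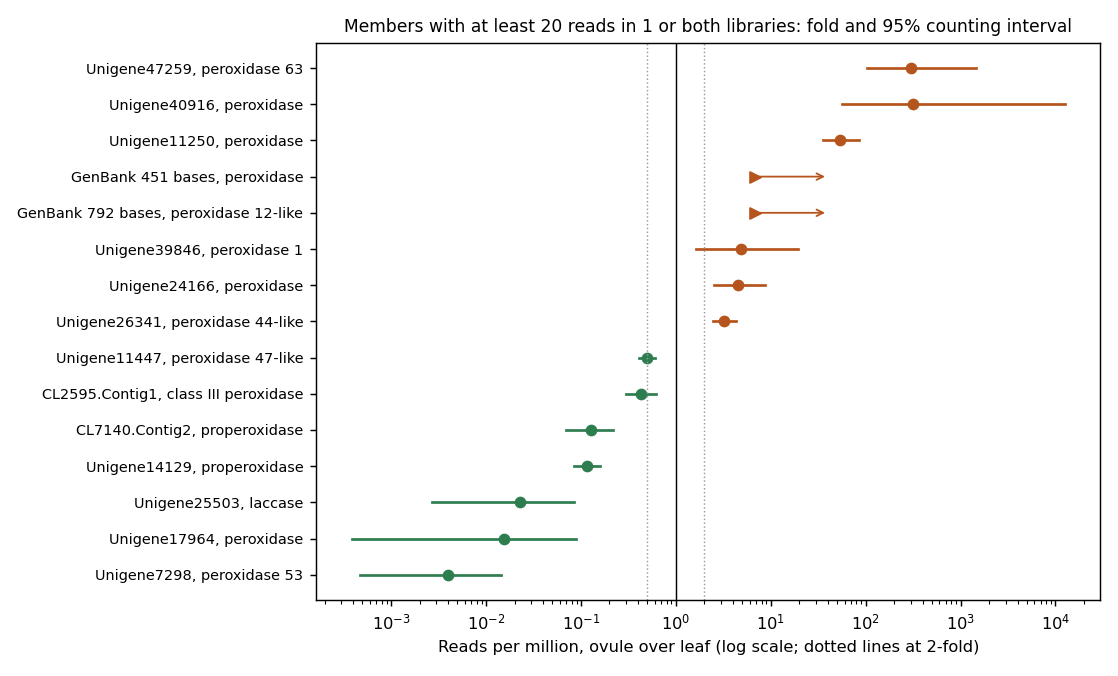
Fold of ovule over leaf in reads per 1000000, on a log axis, for the 15 members with at least 20 reads in 1 or both libraries; points are folds, bars the 95% counting intervals, and arrows lower bounds for members with 0 leaf reads. Folds run from Unigene7298 (254-fold toward leaf) to Unigene40916 (317-fold toward ovule), and no interval of these 15 reaches 1.

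Peroxidases known from ginkgo itself had low counts. A single ginkgo peroxidase protein was the best hit of 7 members, 1 assembled sequence and 6 GenBank tags. The assembled Unigene24166 (1590 bases) had 68 ovule and 14 leaf reads, at 9.33 and 2.07 RPKM, 4.50-fold higher in ovule (2.51 to 8.66). Those reads covered 12.8% of it in ovule and 12.3% in leaf. The 6 tags had 11 ovule and 2 leaf reads between them, and none of them had more than 5 in a library. Summed over all 7, the counts were 79 and 16, an ovule excess of 4.57-fold (2.65 to 8.39). The tag of 589 bases, with 5 of those 11 ovule reads, matched the protein weakly, at an E value of 5.00e-07. Whether the 7 sequences stand for 1 gene was not tested. With 7 reference sequences sharing a best hit, and only uniquely mapped reads counted, their level is uncertain.

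**Figure D4:**
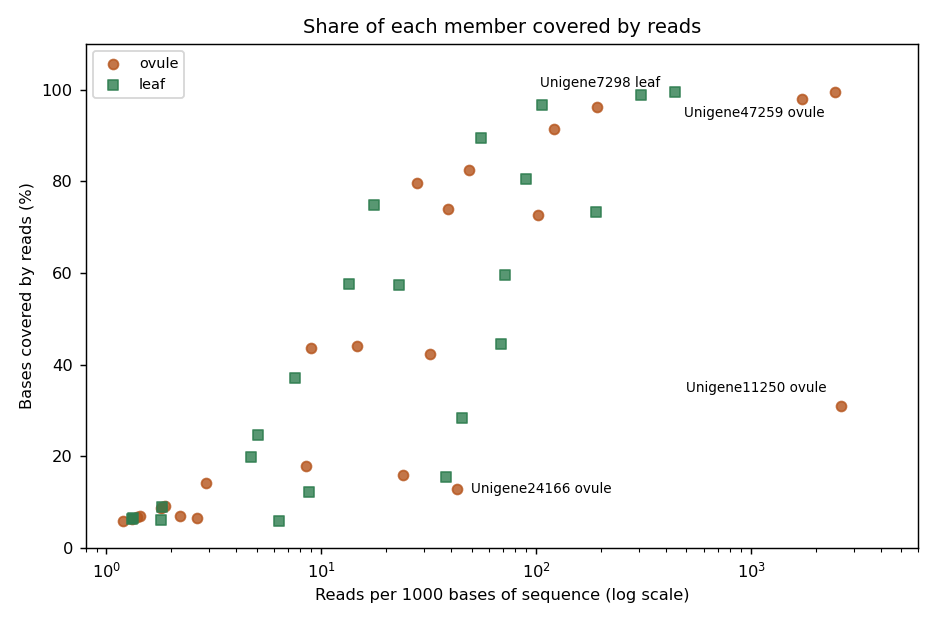
Percent of bases covered by reads against reads per 1000 bases (log axis) for every member with reads, with circles for ovule and squares for leaf. In ovule, Unigene11250 is covered over 31.0% of its bases and Unigene24166 over 12.8%, while Unigene47259 in ovule and Unigene7298 in leaf are covered over 99.5% and 99.4%.

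Weakly read members with a call were found in both directions. A peroxidase 12-like GenBank tag of 792 bases had 22 ovule reads and none in leaf. Its 6.06 RPKM in ovule is 6.79 times the 0.892 that a count of 0 allows in leaf. That ratio leaves out the counting error of the 22 reads, and the counting interval of the fold had a lower limit of 5.08. A GenBank tag of 451 bases with a barrel medic (*Medicago truncatula*) peroxidase as best hit had the same counts, 22 and 0, at 10.6 RPKM in ovule, and so the same ratio and lower limit. Their reads covered 79.7% and 82.5% of the bases. Unigene39846 (174 bases, peroxidase 1 of pear) had 21 ovule and 4 leaf reads, an ovule excess of 4.86-fold (1.64 to 19.5). In the other direction, CL7346.Contig2 had 0 ovule and 10 leaf reads, on 5.96% of its 1578 bases. Its leaf level was 3.60 times what a count of 0 allows in ovule, and the interval of the fold had a lower limit of 2.42. CL7346.Contig1, with the same Arabidopsis protein as best hit, had 0 and 3. Unigene32697, a peroxidase 4 sequence, had 0 and 4 reads, and its call toward leaf was lost when the counting interval had to exclude 1 (lower limit 0.712-fold).

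At the low end, 12 members had at most 5 reads over both libraries together, and for those no difference was detectable at this depth. Of the 11 GenBank members, 7 were under the filter. Of all 29, 18 had reads in both libraries, 7 in ovule alone and 4 in leaf alone.

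The median length was 510 bases for the 9 members called toward ovule and 1022 for the 9 called toward leaf. The ranges overlapped, from 174 to 1590 bases toward ovule and from 227 to 1578 toward leaf. Over all sequences the order was the other way, with medians of 355 for ovule calls and 295 for leaf calls. Among the 18 assembled members, ovule was higher for 6 and leaf for 9, where the shares over all assembled sequences past the filter were 25.2% and 36.4%. Of the 4 GenBank members past the filter, 3 were called toward ovule, 2 of them with an interval that excluded 1, where 55.6% of all GenBank sequences past the filter were called that way. The identifiers of assembled sequences end in a tag naming ginkgo leaf, and its part in these lengths was not tested.

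By the species of the best hit, 12 members matched a gymnosperm (7 ginkgo, 4 spruce and 1 pine), 16 a flowering plant, and 1 carried no species. No species given was a microbe or an animal. Of the 7 gymnosperm matches past the filter, ovule was higher for 3 and leaf for 3, and of the 13 flowering plant matches, 6 and 5. The 29 members had 19 distinct best hits, and 15 shared theirs with another member, so the 29 sequences may stand for fewer genes. By name, 10 peroxidases carried a family number, with 8 different numbers. Of the 9 numbered members past the filter, ovule was higher for 4 and leaf for 3. When the counting interval also had to exclude 1, ovule was higher for 4 and leaf for 1. Over all sequences past the filter, calls without the interval were made for 27.3% toward ovule and 35.1% toward leaf. With the interval the shares were 17.3% and 13.6%. No such share was taken by the species of the best hit.

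The gene ontology terms, which the choice of members did not use, placed many of these proteins outside the cell. Of the 19 members with a cellular component term, 11 (57.9%) had extracellular region, against 3.10% of the 18731 sequences with such a term in the whole reference. A further 7 had a cell wall term, which made 18 of 19, and 7 had a vacuole term. Peroxidase activity was given to 19 members, haem binding to 14 and response to oxidative stress to 13. How the authors assigned the terms is not stated by the labels or headers.

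The same terms pointed to peroxidases without a name. Peroxidase activity was attached to 129 sequences, of which 46 also carried a DNA binding term. A set of 27 non-members carried both peroxidase activity and haem binding, no DNA binding, and a description that names no function, which for 24 was that of a spruce protein. This set was formed after the tables were seen, and it can hold ascorbate peroxidases as well as class III enzymes. Of its 25 sequences past the filter, 13 lay toward ovule and 4 toward leaf, at a median log2 ratio of 1.06 (0.39 to 2.20), or 0.82 with empty libraries at 3 reads. Summed reads were 3307 in ovule against 958 in leaf, an ovule excess of 3.20-fold (2.98 to 3.44), and 1.32-fold (1.22 to 1.44) without the most-read sequence. The smaller excess still held the 528 ovule and 4 leaf reads of Unigene31004, which shared the most-read sequence's best hit.

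The unnamed set also held short sequences at high levels in ovule and a long one in leaf. Unigene36267 (444 bases) had 1951 ovule and 8 leaf reads, at 959 and 4.24 RPKM, 226-fold higher in ovule (114 to 524), above any named member. Unigene31004 (231 bases), with the same unknown spruce protein as best hit, had 528 and 4 reads, an excess of 122-fold in ovule (47.5 to 451), so that both may be pieces of 1 gene. Unigene42971 (185 bases) had 139 and 1 reads, 129-fold (22.7 to 5123).

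Toward leaf, Unigene15180 (1132 bases) had 17 ovule and 664 leaf reads, at 3.28 and 138 RPKM, 42.2-fold higher in leaf (26.1 to 72.8), and exceeded every named member in leaf. Its best hit, an unknown spruce protein, was shared with CL5354.Contig1, at 107 and 59 reads, and Unigene21497, at 93 and 18 reads. Those were 1.68-fold (1.21 to 2.35) and 4.79-fold (2.87 to 8.43) higher in ovule, so relatives of a single spruce protein lay on both sides. The third contig of cluster CL7346 was also in this set, with 0 ovule and 13 leaf reads. The other contig of cluster CL7140 had 1 and 7 reads.

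Genes that supply the substrates of these enzymes were called in both directions. Lignin monomer enzymes, from phenylalanine ammonia-lyase to cinnamyl alcohol dehydrogenase, had 16 of 55 sequences past the filter called toward ovule and 20 toward leaf, at a median log2 ratio of -0.08 (-1.31 to 0.70). The authors' term lignin biosynthetic process held 31 sequences past the filter, 14 called toward ovule and 9 toward leaf (median 0.81, -0.64 to 1.64). Dirigent proteins, which guide the coupling of the radicals, had 2 of 8 higher in ovule and 4 in leaf. Their reads numbered 830 in ovule and 2306 in leaf, an excess toward leaf (interval of the fold, 2.77 to 3.25), and were 7.31-fold higher in ovule (5.96 to 9.04) without the most-read sequence, so their direction rests on it.

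Enzymes that make or remove hydrogen peroxide, the other substrate of peroxidases, were counted in the same way. Respiratory burst oxidases, membrane NADPH oxidases that release superoxide to the wall, had 4 of 8 sequences called toward ovule and 3 toward leaf, with an ovule excess in reads of 3.34-fold (2.77 to 4.05). Without CL2225.Contig2 the counts were 71 and 33, a 1.99-fold excess. Superoxide dismutase and germin sequences, 3 of 6 higher in ovule and 2 in leaf, had reads 2.63-fold higher in ovule (2.41 to 2.88), but 0.980-fold (0.847 to 1.13) without a copper-zinc superoxide dismutase. Catalase, which breaks hydrogen peroxide down in peroxisomes, had 6 of 7 sequences higher in leaf and none in ovule, with reads 10.6-fold higher there (10.1 to 11.1), and 12.4-fold (10.5 to 14.8) without its most-read sequence.

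Copper chaperones and transporters, which carry the metal that laccases need, had 3 of 6 sequences higher in ovule and 1 in leaf. They had 700 ovule and 798 leaf reads, or 443 and 207 without the most-read sequence. That sequence, Unigene20206, was described as the copper-transporting ATPase paa1. Whether any of the list serves laccases was not tested. Ascorbate oxidases, multicopper enzymes related to laccases, were barely read, with 2 ovule and 14 leaf reads over 3 sequences. Cellulose synthase and fasciclin-like sequences of the wall were mostly ovule sequences, 22 of 26 higher in ovule and 2 in leaf (median 2.63, 1.80 to 3.20). Among NAC and MYB regulators, families that include switches of secondary wall formation, ovule was higher for 20 of 38 and leaf for 9 (median 1.38, -0.60 to 1.81, or 0.55 with empty libraries at 3 reads). All these shares are set against the 27.3% and 35.1% of all sequences called toward ovule and leaf.

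**Figure D5:**
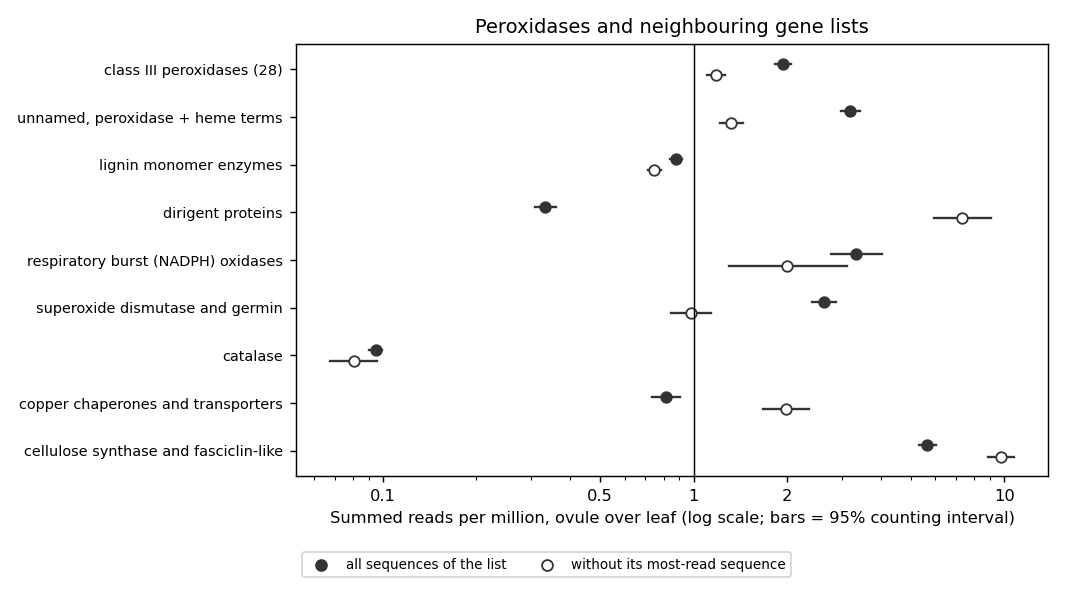
Fold of ovule over leaf in summed reads per 1000000, on a log axis, for the 28 class III peroxidases, the unnamed sequences with peroxidase and haem terms, and neighbouring gene lists; bars are 95% counting intervals. Filled points take all sequences and open points leave out the most-read one, which brings the peroxidases from 1.94 to 1.18 and carries the dirigent, superoxide dismutase and copper lists across 1, while catalase stays toward leaf at both.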

How the data were processed

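Total RNA of 2 tissues, 1 library each, was sequenced on an Illumina platform, per the labels' protocols. For every reference sequence the deposited tables hold, per the file headers, the count of uniquely mapped reads, the length, the percent of bases covered and the RPKM, beside gene ontology terms and the best BLAST hit. Assembler, aligner and BLAST settings: not given in the sources used here. Counts summed to the total in each header, and RPKM equalled reads over length and total in every row (relative tolerance 1e-06). A sequence listed in 1 table had 0 reads in the other. Reads were 49 bases long, as sequences with 1 read show. No reference sequences or genome were used here, so no sequence is printed.

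Ratios, folds and intervals were computed in Python 3.11.15 with scipy 1.17.1 and checked on simulated counts. TMM factors came from edgeR 4.0.16 and size factors from DESeq2 1.42.0, for scaling only, since 1 library per group allows no count model. Alternatives were pseudocount, filter, scaling, read and coverage minimum, assembled sequences alone, sums per description and, chosen after seeing the data, an E value limit and sums without the 3 most-read members.

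Members and lists were chosen with earlier results of these data known. Members named were the 6 with the highest RPKM per subgroup, the 10 largest folds each way at 20 or more reads with an interval excluding 1, those with 0 reads in 1 library and at least 10 in the other, and the most-read of each shared description, 17 in all. Further members are named to complete a pair or a count, chosen after their values were seen, as were the sequences of the unnamed set.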

Additional observations from a re-analysis of the deposited data

How the results depend on the processing

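Of 74 values recomputed for the counts, medians and sums, 68 stayed within the interval of the reported value or, for counts, within 1.5 times of it. Within those wide intervals the median log2 ratio still changed sign: for all members from -0.72 to 0.46 (RPKM of at least 5) and 1.65 (at least 20 reads), and for class III peroxidases from -0.65 to 0.18 (no filter), 1.65 and 1.79. The count of members higher in ovule fell from 9 to 5 with RPKM summed per description, and to 5 with an E value of at most 1e-20, which leave fewer entries by construction. For the summed reads of peroxidases, the 1.94-fold excess in ovule was 1.18 without the most-read member, 1.75 under TMM scaling, 1.35 with the E value limit, and turned to 0.863 (higher in leaf) without the 3 most-read members, Unigene11250, Unigene47259 and Unigene7298. The sum with the E value limit still held Unigene11250. The leaf excess of the laccase and all 39 rescaled folds of single members kept their direction and stayed within their counting intervals. Each scaling moves every fold by the same factor, the largest shift being -0.165 in log2 for TPM. A shift of that size could not turn the direction of these folds. The log2 ratio of all sequences had a median of -0.10 as reported, -0.24 under TMM and -0.25 as TPM, and under each of TMM, TPM and DESeq2 scaling 1 more member, 10 in all, was called higher in leaf. The laccase sum without its most-read member and a sum of other members could not be computed, since no sequence was left. No paired analysis was possible because each tissue had 1 library. Depth limits the 12 members with at most 5 reads, and the absence of replicates limits every difference.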
